A study of Mus musculus with 6 samples.

Results

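Intraflagellar transport (IFT) and BBSome genes were followed in RNA sequencing libraries from mouse testis. They were taken from the deposited gene table by name, as protein-coding genes called Ift or Bbs with a number, together with Ttc8, Traf3ip1, Cluap1, Wdr19, Wdr34, Wdr35, Wdr60, Arl6, Arl13a, Arl13b and Tulp1 to Tulp4. The rule found 36 genes among 22046 protein-coding genes and 54532 genes of all kinds. The rule used names and gene type only, but it was set with earlier results of these data known.

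The study made 6 libraries from testis cells that the labels call STRA8+ germ cells, STRA8 being a protein of germ cells entering meiosis. The 3 control libraries have the genotype Cre, and the 3 knockout libraries are labelled knockout, with conditional knockout as the treatment of every sample. The study's title names BCAS2 and hnRNPH1, but no label gives the deleted gene, the promoter that drives Cre, or the strain and age of the mice. Whether each library is a different animal is not stated either, and the p-values below therefore rest on a spread among libraries that may be technical.

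IFT is the two-way traffic of protein particles along the microtubules of a growing cilium or flagellum. The IFT-B complex, with kinesin-2 as its motor, carries building material towards the tip, and the IFT-A complex, with dynein-2, is needed for the way back and for the entry of membrane proteins. The BBSome, named after Bardet-Biedl syndrome, rides on these trains as an adaptor that takes membrane proteins out of the cilium. In the testis the machinery is best known from spermatids, where it is required for building the sperm tail, and mice that lack several of these genes make sperm with short or missing tails.

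Reads assigned to genes, recovered from the deposited values, numbered 14532453 to 16963019 per library. Levels are in FPKM, a read density scaled to gene length and library, and were deposited with a size factor built in, so that the library divisor was 0.691 to 0.774 times the read total in the controls and 1.37 to 1.42 times in the knockout. A knockout value as deposited is therefore lower against a control value than a share of reads would be. The median log2 fold change of the 16791 genes tested was -0.41 as deposited. It was 0.71 with FPKM rescaled to sum to 1000000, 0.53 with quantile normalization and 0.42 with the size factor removed, shifts of 1.12, 0.94 and 0.83. Directions are given below with these 3 other scalings in view. As deposited, summed markers of germ cell stages and of other testis cells differed between the groups, except those of peritubular and endothelial cells, which overlapped. These sums were not computed under the other 3 scalings, which could change whether the groups overlap. The summed level of 12 spermatid markers was 18830 to 21950 FPKM in control libraries against 6.45 to 9.92 FPKM in the knockout, that of 12 markers of pachytene and diplotene spermatocytes 6292 to 7457 and 124.2 to 165.6 FPKM, that of 12 markers of spermatogonia and preleptotene cells 85.6 to 140.4 and 669.1 to 793.8 FPKM, and that of 12 Sertoli cell markers 181.4 to 381.9 and 721.2 to 1260 FPKM. All 12 spermatid and all 12 spermatocyte markers were lower as deposited, 11 spermatogonial markers were higher and 1 was lower, and all 12 Sertoli markers were higher. No marker in these 4 lists was at 0 in all 3 knockout libraries. Leydig cell markers (7 genes) summed to 90.9 to 152.7 and 18.4 to 71.7 FPKM, peritubular and endothelial markers (8) to 16.0 to 32.4 and 22.1 to 38.7 FPKM, and macrophage and blood markers (7) to 26.2 to 35.1 and 38.4 to 84.6 FPKM. Single Leydig markers went both ways, with Cyp17a1 lower and Star higher under all 4 scalings. The part of these cells in the results below was not tested, and in such bulk libraries fewer cells of a type and less RNA per cell cannot be told apart.

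Almost every IFT and BBSome gene was lower in the knockout as deposited. Of the 36 genes, 35 reached the minimum mean of 1 FPKM over the 6 libraries. Of these, 33 were lower, 1 was higher (Tulp3) and 1 (Bbs12) did not pass limma's adjusted p threshold of 0.05. Of all 16791 genes tested, 50.4% were lower and 36.2% were higher. The members' median log2 fold change, knockout minus control on the log2(FPKM + 0.5) scale, was -2.07, which is -1.66 relative to the median of all genes. With FPKM rescaled, quantile normalization and the size factor removed, the members' median was -1.01, -1.37 and -1.21, with 25, 30 and 26 members lower and 5, 4 and 4 higher. Over all genes tested, 36.2%, 36.8% and 38.9% were lower and 54.2%, 52.1% and 50.6% were higher under these scalings. A set of 25 members was lower under all 4 scalings, against a background of 34.2% of all genes, and Tulp3 was higher under all 4, against 36.2%. A log2 fold change of -1 or less was called for 29 members as deposited, against a background of 41.1%, and one of -2 or less for 20 members, against 30.9%. Shares of the reads assigned to genes use no gene length. By these, the 35 genes took 0.482 ± 0.00918% of the control reads (SD, n = 3) and 0.141 ± 0.00702% of the knockout reads (SD, n = 3).

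**Figure D1:**
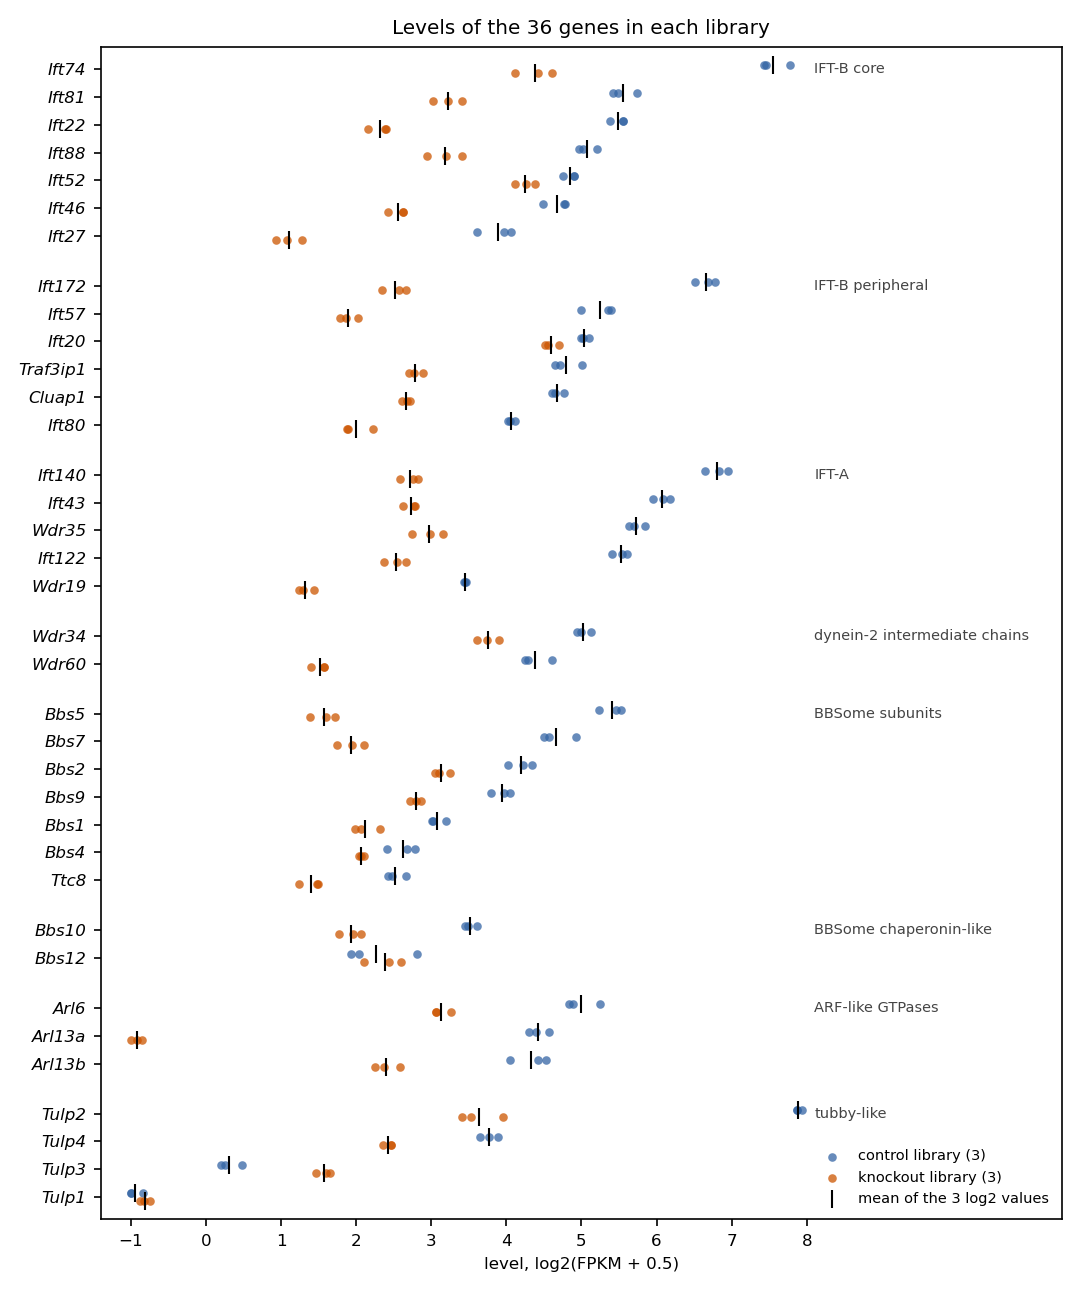
Level of each of the 36 genes on a log2(FPKM + 0.5) axis, with 1 point per library, control in blue and knockout in orange, and a black tick at the mean of the 3 log2 values. Genes are grouped by role and ordered by control level, and the groups overlap in 2 genes, Bbs12 and Tulp1.

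The replicates were close to each other for most members. The coefficient of variation over the 3 controls had a median of 9.62% among the 35 genes and reached 39.1% in Bbs12. Control 1 was the highest control library for 27 of the 35 genes and knockout 2 the highest knockout library for 22. The groups did not overlap for 34 of the 35 genes, against 88% of all genes tested, and all 3 controls lay above all 3 knockout libraries for 33, against 51.1%.

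Promoter sequence is shown for members whose promoters held a motif of a factor known from ciliary or germ cell genes. The windows come from RefSeq on GRCm38.p6, the assembly that mm10 denotes, and run from 250 bases before to 50 bases after a start site. They were found for 32 members in 36 windows. The X-box bound by RFX factors, searched as GTTNCC and GGNAAC with 0 to 3 bases between, was in 2 members, Bbs7 and Ift57, which is 5.56% of the member windows and 0.804% of all 32851 windows. The CRE letters TGACGTCA were in 1 member, Ift57, against 1.79% of all windows. The MYB site CAACTG was in 5 members (Arl13b, Ift43, Ift46, Ift52 and Wdr60), or 13.9% of member windows against 13.7% of all windows. All were searched on both strands, and a match is a description of the letters. Below, capitals mark the matches, and each stretch is written 5′ to 3′ along the gene. Bbs7 (chr3:36613478-36613540, minus strand) and Ift57 (chr16:49699102-49699246, plus strand) show the X-box, Ift57 with the CRE before it. Ift43 (chr12:86082423-86082488, plus strand) and Ift52 (chr2:163017249-163017314, plus strand) show the MYB site in a member with a large and a member with a small difference.
Bbs7: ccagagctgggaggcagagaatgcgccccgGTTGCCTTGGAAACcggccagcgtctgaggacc
Ift57: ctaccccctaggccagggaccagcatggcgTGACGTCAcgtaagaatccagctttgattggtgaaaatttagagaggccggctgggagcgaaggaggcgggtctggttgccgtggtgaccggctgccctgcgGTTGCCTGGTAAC
Ift43: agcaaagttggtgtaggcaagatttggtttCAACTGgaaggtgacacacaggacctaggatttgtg
Ift52: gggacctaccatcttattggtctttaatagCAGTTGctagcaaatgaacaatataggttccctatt
In Bbs7 the X-box began 121 bases before the RefSeq start and in Ift57 60 bases before it, where the last 14 bases of the stretch printed lie inside the gene as the deposited table bounds it.

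The core of IFT-B, the part of the train that holds together as a stable subcomplex, had 7 members. All 7 were lower as deposited, against 50.4% of all genes tested. Groups of this size, here and below, are too small to compare with such shares. Ift74, which with Ift81 forms the module that binds tubulin, was the most abundant IFT gene in the controls, at 218.7, 171.7 and 175.5 FPKM, and had 16.8, 23.9 and 21.0 FPKM in the knockout. All 3 controls lay far above all 3 knockout libraries. Its log2 fold change was -3.17 ± 0.151 (SE, limma adjusted p = 3.3e-07), and its means of 188.6 ± 26.1 and 20.6 ± 3.54 FPKM (SD, n = 3 each) differ 9.17 times. Its partner Ift81 went from 46.6 ± 5.58 to 8.87 ± 1.28 FPKM, a ratio of 5.25. The small GTPase-like subunits Ift22 and Ift27 fell with log2 fold changes of -3.18 and -2.79. Ift22 went from 44.6 ± 3.14 to 4.49 ± 0.437 FPKM and Ift27 from 14.4 ± 2.36 to 1.65 ± 0.253 FPKM. Ift88, the gene mutated in a classic mouse model of polycystic kidneys, and Ift46 fell less, by 1.89 and 2.12 on the log2 scale, to 8.65 ± 1.43 and 5.41 ± 0.456 FPKM. Each of these 6 genes was lower under all 4 scalings, against 34.2% of all genes.

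Ift52, a core subunit that links the modules of IFT-B, stood apart from the other 6. It had 29.4, 26.4 and 29.5 FPKM in control libraries against 16.8, 20.3 and 18.7 FPKM in the knockout. The groups did not overlap as deposited, with the lowest control at 1.30 times the highest knockout library. Its log2 fold change was -0.60 ± 0.102 (SE, limma adjusted p = 0.00069) as deposited, and turned to 0.57, 0.39 and 0.30 with FPKM rescaled, quantile normalization and the size factor removed, with limma adjusted p of 0.00062, 0.0052 and 0.012. Ift52 drew 2814 control reads and 3259 knockout reads.

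The peripheral subunits of IFT-B join the core and contact the motor and cargo. All 6 were also lower as deposited, against 50.4% of all genes, with Ift20 turning under the other scalings. Ift172, the largest subunit, had 109.5, 91.1 and 102.4 FPKM in control libraries against 4.57, 5.81 and 5.42 FPKM in the knockout. Ift172 had a log2 fold change of -4.14 ± 0.117 (SE, limma adjusted p = 1.6e-08), the lowest among the members in the 3 complexes, and its means differ 19.2 times. Ift57, whose promoter is shown above, went from 37.8 ± 5.56 to 3.21 ± 0.316 FPKM with a log2 fold change of -3.36. Traf3ip1, the gene of IFT54, Cluap1, the gene of IFT38, and Ift80 fell by similar amounts, with log2 fold changes of -2.0, -2.01 and -2.07 and control means of 27.4 ± 3.83, 25.1 ± 1.55 and 16.2 ± 0.555 FPKM. These 5 genes were lower under all 4 scalings, against 34.2% of all genes. Of the exon bases of Cluap1, 22.4% are shared with Gm20695 on the same strand and 16.1% with 1700016D08Rik on the other. Gm20695 had 0.256 and 0.475 FPKM in controls and knockout, and 1700016D08Rik was listed at 0 in all libraries.

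Ift20, the smallest subunit and one that also sits at the Golgi, had 31.3, 33.9 and 32.0 FPKM in control libraries against 22.4, 25.6 and 23.0 FPKM in the knockout. The groups did not overlap as deposited, but the distance between them was small beside that of Ift172. The log2 fold change of Ift20 was -0.45 ± 0.0900 (SE, limma adjusted p = 0.0018), and it turned to 0.73, 0.65 and 0.46 with FPKM rescaled, quantile normalization and the size factor removed (limma adjusted p = 0.00024, 0.00029 and 0.0025). It drew 1761 control reads and 2256 knockout reads. Ift20 and Ift52 were the most abundant IFT genes of the knockout together with Ift74, while in the controls they ranked seventh and eighth of the 13 IFT-B members.

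All 5 members of IFT-A were lower under all 4 scalings, against 34.2% of all genes, with a median of -3.00 as deposited. Ift140, a core subunit, had 123.3, 99.9 and 113.2 FPKM in control libraries against 5.50, 6.26 and 6.58 FPKM in the knockout. The lowest control was 15.2 times the highest knockout library. Ift140 had a log2 fold change of -4.09 ± 0.112 (SE, limma adjusted p = 1.3e-08) and means that differ 18.3 times. Ift122, another core subunit, went from 45.6 ± 3.25 to 5.28 ± 0.586 FPKM. The peripheral subunits Ift43 and Wdr35, the gene of IFT121, went from 66.9 ± 5.40 to 6.12 ± 0.391 FPKM and from 52.6 ± 4.0 to 7.37 ± 1.11 FPKM. Wdr19, the gene of the core subunit IFT144, was the least abundant in both groups, at 10.4 ± 0.129 and 2.01 ± 0.175 FPKM, and had a log2 fold change of -2.13. Wdr34 and Wdr60 encode the intermediate chains of dynein-2. Wdr60 went from 20.5 ± 2.93 to 2.37 ± 0.194 FPKM with a log2 fold change of -2.86. Wdr34 had 31.4, 30.3 and 34.6 FPKM in control libraries against 14.5, 12.9 and 11.7 FPKM in the knockout, and a log2 fold change of -1.27, which became -0.11 with FPKM rescaled (limma adjusted p = 0.36).

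**Figure D2:**
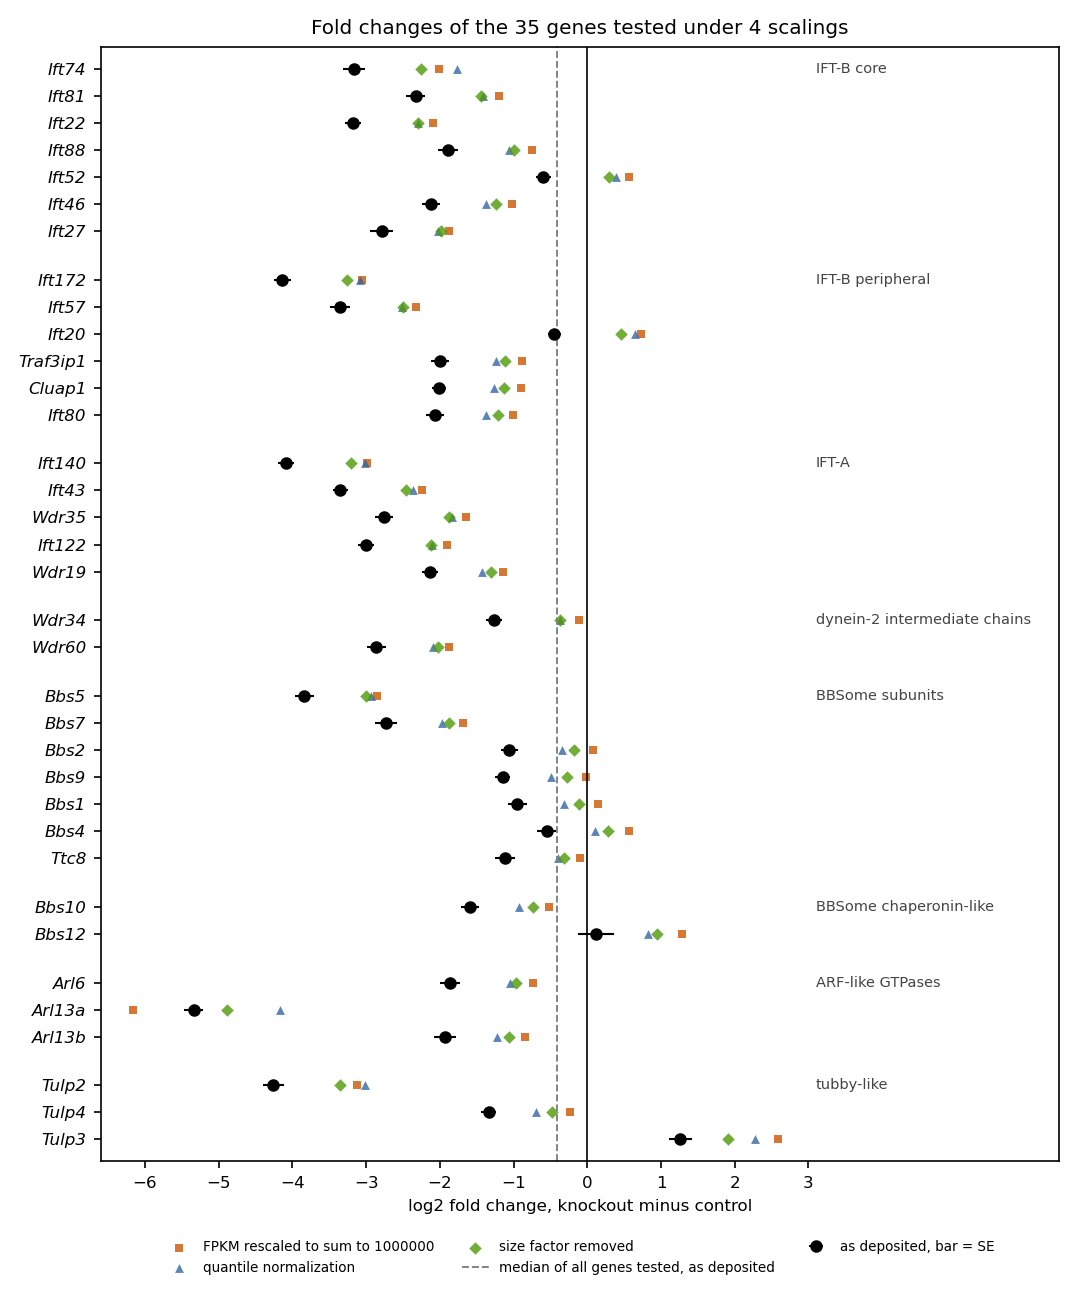
Log2 fold change of the 35 genes tested, knockout minus control, as deposited (black, bar = SE) and under 3 other scalings, with the median of all genes as deposited as a dashed line. As deposited 33 genes are lower, Bbs12 did not pass and Tulp3 is higher, while Ift20, Ift52 and Bbs4 lie above 0 under each of the 3 other scalings and Bbs1 and Bbs2 do so with FPKM rescaled.

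All 7 BBSome subunits among the members were lower as deposited, against 50.4% of all genes. Of these, 2 (Bbs5 and Bbs7) were lower under all 4 scalings, against 34.2% of all genes, and the other 5 were not. Bbip1, a small BBSome subunit that the naming rule does not reach and that was added after its values were seen, went from 46.3 ± 5.14 to 8.76 ± 1.30 FPKM and was lower under all 4, with a log2 fold change of -2.34 as deposited. Bbs5, which binds phosphoinositides through pleckstrin homology domains, had 45.8, 43.6 and 37.2 FPKM in control libraries against 2.12, 2.53 and 2.80 FPKM in the knockout. Among the 7 BBSome members it was the most abundant in each control library and second lowest by its mean in the knockout. Its log2 fold change was -3.84 ± 0.128 (SE, limma adjusted p = 4.1e-08). Bbs7, a propeller subunit whose X-box is shown above, had 29.9, 23.2 and 22.2 FPKM in control libraries against 2.85, 3.81 and 3.36 FPKM in the knockout, with a log2 fold change of -2.73 ± 0.150 (SE, limma adjusted p = 7.9e-07). Both were lower under all 4 scalings.

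The other 5 were lower as deposited, with log2 fold changes of -1.06 for Bbs2, -1.15 for Bbs9, -0.95 for Bbs1, -0.55 for Bbs4 and -1.12 for Ttc8, the gene of BBS8. Under quantile normalization Bbs2, Bbs9, Bbs1 and Ttc8 were still called lower, at -0.35, -0.49, -0.31 and -0.40 (limma adjusted p = 0.011, 0.0031, 0.042 and 0.017), and Bbs4 was not. None of the 5 was called lower with FPKM rescaled or with the size factor removed, and Bbs4 was higher with FPKM rescaled, at 0.56 (limma adjusted p = 0.015). Their log2 fold changes ran from -0.10 to 0.56 with FPKM rescaled and from -0.32 to 0.28 with the size factor removed. Bbs2, which pairs with Bbs7, went from 17.9 ± 2.04 to 8.30 ± 0.640 FPKM as deposited and Bbs9, a scaffold of the complex, from 14.9 ± 1.32 to 6.43 ± 0.337 FPKM. Bbs1, which binds ARL6, had 7.94 ± 0.619 and 3.88 ± 0.535 FPKM. Bbs4 had 4.80, 5.90 and 6.37 FPKM in control libraries against 3.66, 3.63 and 3.81 FPKM in the knockout, a narrow gap as deposited. Bbs4 shares 3.21% of its exon bases with Adpgk on the other strand, a gene at 1.41 FPKM in control libraries against 5.54 FPKM in the knockout, and strand treatment is not given in the sources used here.

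Bbs10 and Bbs12 encode chaperonin-like proteins that assemble the BBSome. Bbs10 had 11.7, 10.4 and 10.8 FPKM in control libraries against 3.67, 2.92 and 3.39 FPKM in the knockout, with a log2 fold change of -1.59, and was lower under all 4 scalings. Bbs12 had 6.5, 3.62 and 3.33 FPKM in control libraries against 5.56, 3.81 and 4.94 FPKM in the knockout. Control 1 lay above all knockout libraries and the other 2 controls below them. Its log2 fold change was 0.12 ± 0.247 (SE, limma adjusted p = 0.66) as deposited, and it was called higher under the other 3 scalings, at 1.28, 0.83 and 0.95. It drew 375 control reads and 730 knockout reads.

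Proportions between the subunits of a complex within a library are not altered by a constant factor per library, such as the size factor or the rescaling, though quantile normalization does alter them. They are given here as a description, since the measure was chosen after the values were seen and no subunit could pass its test. Of the summed FPKM of the 13 IFT-B members, Ift74 made up 30.3 ± 1.53% in the controls and 17.6 ± 1.38% in the knockout, and Ift172 16.3 ± 0.485% and 4.53 ± 0.157% (SD, n = 3 each). Ift20 made up 5.27 ± 0.696% and 20.4 ± 0.866%, and Ift52 4.59 ± 0.282% and 16.0 ± 0.109%. Ift81 kept close to the same proportion, 7.50 ± 0.451% and 7.61 ± 0.352%, with overlapping groups. In IFT-A, Ift140 made up 38.9 ± 0.819% and 22.8 ± 1.53%, and Wdr35 18.3 ± 0.430% and 27.3 ± 1.91%. In the BBSome, Bbs5 made up 35.4 ± 2.37% and 8.21 ± 1.16%, and Bbs2 15.0 ± 1.36% and 27.4 ± 0.396%. Proportions within a complex share a fixed total, so they are not independent, and a larger one need not mean a higher level. The levels of Wdr35 and Bbs2 were lower in the knockout as deposited. The summed FPKM themselves, as deposited, were 620.9 ± 58.9 and 116.2 ± 11.5 for IFT-B, 287.6 ± 24.3 and 26.9 ± 2.23 for IFT-A and 119.0 ± 6.58 and 30.3 ± 1.94 for the BBSome. The groups did not overlap for 22 of the 25 subunits, 14 with a larger and 8 with a smaller proportion in the knockout, and 88% of all genes tested did not overlap in FPKM, so the count is near that background. The two-sided exact permutation test over 3 against 3 libraries cannot go below p = 0.1, which these 22 reached, with a Benjamini-Hochberg adjusted value of 0.114 over the 25.

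**Figure D3:**
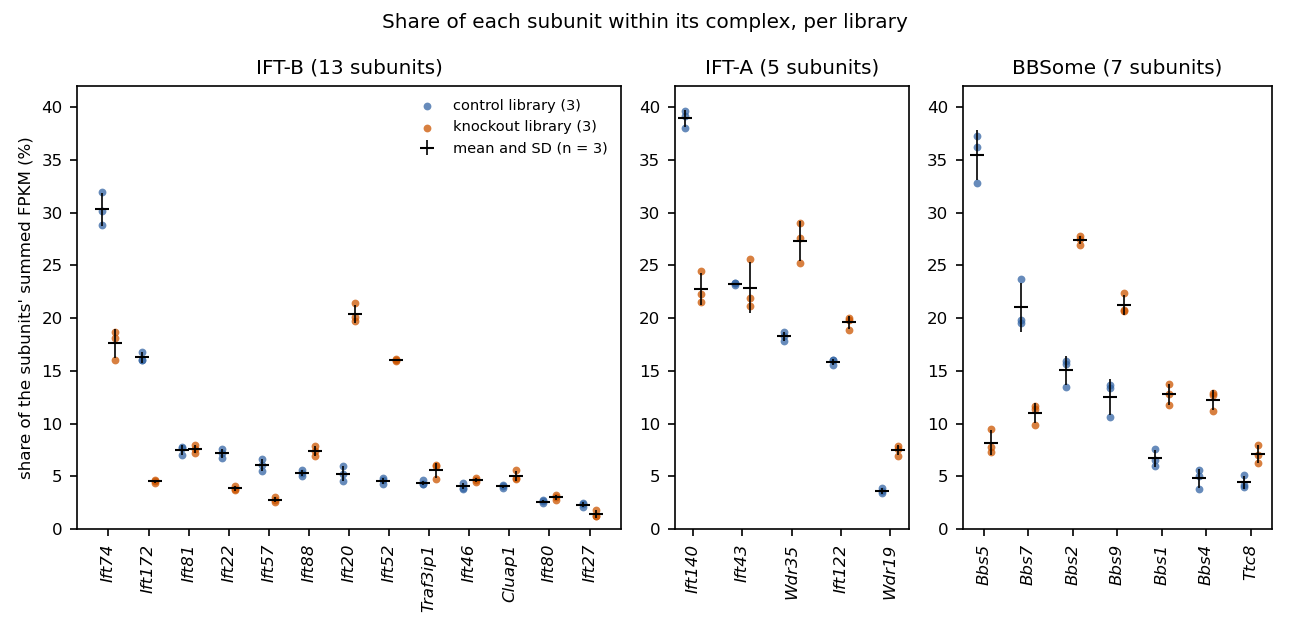
Percentage of the summed FPKM of IFT-B (13 subunits), IFT-A (5) and the BBSome (7) contributed by each subunit, with 1 point per library, control in blue and knockout in orange, and the mean with SD (n = 3) in black. Ift20 and Ift52 take 20.4% and 16.0% of IFT-B in the knockout against 5.27% and 4.59% in the controls, and Bbs5 takes 8.21% of the BBSome against 35.4%.

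The ARF-like GTPases and the tubby-like genes act around these complexes. Arl6, also known as BBS3, recruits the BBSome to membranes and went from 31.6 ± 5.24 to 8.27 ± 0.715 FPKM. Arl13b, a GTPase of the ciliary membrane that activates ARL3, went from 19.9 ± 3.43 to 4.81 ± 0.610 FPKM. Their log2 fold changes of -1.86 and -1.93 were close to the members' median. Arl13a, the X-linked relative of Arl13b, was nearly absent from the knockout, with 23.2, 20.6 and 19.2 FPKM in control libraries against 0, 0.0284 and 0.0555 FPKM in the knockout. It drew 1287 control reads and 3 knockout reads, which scales to 756.4 times between the groups (exact 95% interval from 258.3 to 3673, for counting error alone). All 3 were lower under all 4 scalings, against 34.2% of all genes.

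Tulp2, a testis-enriched tubby-like gene, was the most abundant of all members, at 244.3, 233.3 and 232.6 FPKM in control libraries against 15.0, 11.1 and 10.1 FPKM in the knockout. Tulp2 had a log2 fold change of -4.26 ± 0.143 (SE, limma adjusted p = 4.2e-08), and 12.3% of its exon bases are shared with Dhdh on the other strand, which had 1.48 and 0.721 FPKM. Tulp4 went from 13.1 ± 1.14 to 4.88 ± 0.208 FPKM. Tulp3, which couples IFT-A to membrane receptors and brings them into the cilium, was the only member called higher as deposited. Under each of the other 3 scalings Ift20, Ift52 and Bbs12 were called higher as well. Tulp3 had 0.650, 0.693 and 0.895 FPKM in control libraries against 2.25, 2.54 and 2.64 FPKM in the knockout, with 249 and 1446 reads behind these values. Its control mean of 0.746 FPKM lay under the filter of 1 FPKM, which it passed through its knockout mean of 2.48 FPKM. The lowest knockout library was at 2.51 times the highest control, and the log2 fold change was 1.26 ± 0.155 (SE, limma adjusted p = 9.9e-05). Tulp1, known from photoreceptors, was the member below the filter, with 5 control reads, 29 knockout reads and at most 0.0971 FPKM in any library. The labels' extraction text speaks of retinas, and 10 photoreceptor markers summed to 2.06 to 2.27 FPKM in control libraries against 0.850 to 1.34 FPKM in the knockout, with none passing the filter.

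Further genes came from 5 lists, covering other subunits, motors, kinases and partners, the transition zone, and transcription factors. The lists also hold proteins of the sperm axoneme and factors of late germ cells, so the counts are not those of ciliary transport alone. Of the 71 tested, 58 were lower and 8 higher as deposited, against 50.4% and 36.2% of all genes, with a median of -1.79, beside -0.41 for all genes, and 44 were lower and 8 higher under all 4 scalings, against backgrounds of 34.2% and 36.2%. Among the remaining subunits and regulators of the complexes, 8 of 10 were lower and 2 higher as deposited, beside 50.4% and 36.2% of all genes. Ttc30a2, a gene of IFT70, went from 122.6 ± 15.4 to 0.831 ± 0.137 FPKM, but its reads may be split with its near-identical copies Ttc30a1 and Ttc30b. Ttc21b, the gene of the IFT-A subunit IFT139, went from 32.1 ± 2.46 to 5.12 ± 0.482 FPKM. The 2 that rose were Hspb11, the gene of IFT25, from 7.22 ± 0.735 to 10.2 ± 0.0490 FPKM, and Mkks, the third chaperonin-like gene, from 1.69 ± 0.189 to 2.29 ± 0.171 FPKM.

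Among the kinesin-2 and dynein-2 motor genes, 11 of 13 were lower and 2 higher as deposited, beside 50.4% and 36.2% of all genes. With FPKM rescaled 8 of these motor genes were lower and 3 higher, beside 36.2% and 54.2% of all genes. The kinesin Kif17 went from 107.9 ± 5.44 to 1.92 ± 0.0842 FPKM. The dynein light chain pair diverged, with Dynlrb2 at 144.6 ± 16.6 and 0.555 ± 0.409 FPKM and Dynlrb1 at 14.4 ± 3.15 and 47.6 ± 3.61 FPKM (limma adjusted p = 1.4e-07 and 2.1e-05). Dynlt3, another light chain, rose from 6.30 ± 0.797 to 12.4 ± 1.79 FPKM. In a mixed list of kinases, small GTPases and their partners, which also holds the axonemal genes Spag16, Spag17 and Spef2, the tubby gene Tub and the golgin gene Trip11, 13 of 19 were lower and 2 higher as deposited. With FPKM rescaled 9 were lower and 8 higher, beside 36.2% and 54.2% of all genes. Spag17 and Spag16, proteins of the central pair of the sperm axoneme, went from 70.0 ± 8.15 and 37.2 ± 6.47 FPKM to 0.0630 ± 0.0569 and 0.201 ± 0.0569 FPKM. Unc119 and Unc119b, which carry lipid-modified cargo to the cilium for release by ARL3, rose from 6.64 ± 2.07 and 5.18 ± 0.685 FPKM to 25.5 ± 4.72 and 17.4 ± 0.299 FPKM.

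The transition zone, the gate at the base of the cilium, had 15 of 17 genes lower and 1 higher as deposited. Of all genes tested, 50.4% were lower and 36.2% higher. With FPKM rescaled 10 transition zone genes were lower and 4 higher, beside 36.2% and 54.2% of all genes. Ahi1, a Joubert syndrome gene, went from 60.6 ± 8.05 to 3.13 ± 0.285 FPKM, while Iqcb1, a gene of ciliopathies of kidney and retina, rose from 16.9 ± 2.05 to 34.0 ± 5.11 FPKM. Of 12 transcription factors known from ciliary or late germ cell genes, 11 were lower and 1 higher as deposited, beside the same 50.4% and 36.2%. Foxj1, a master regulator of motile cilia, went from 44.9 ± 7.55 to 0.463 ± 0.0183 FPKM. Spz1, a factor of spermatids, had 994.2 ± 97.8 FPKM in the controls, was listed at 0 in knockout 1 and 3 and had 0.450 FPKM in knockout 2. Rfx7 rose from 2.51 ± 0.331 to 5.72 ± 0.392 FPKM.

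**Figure D4:**
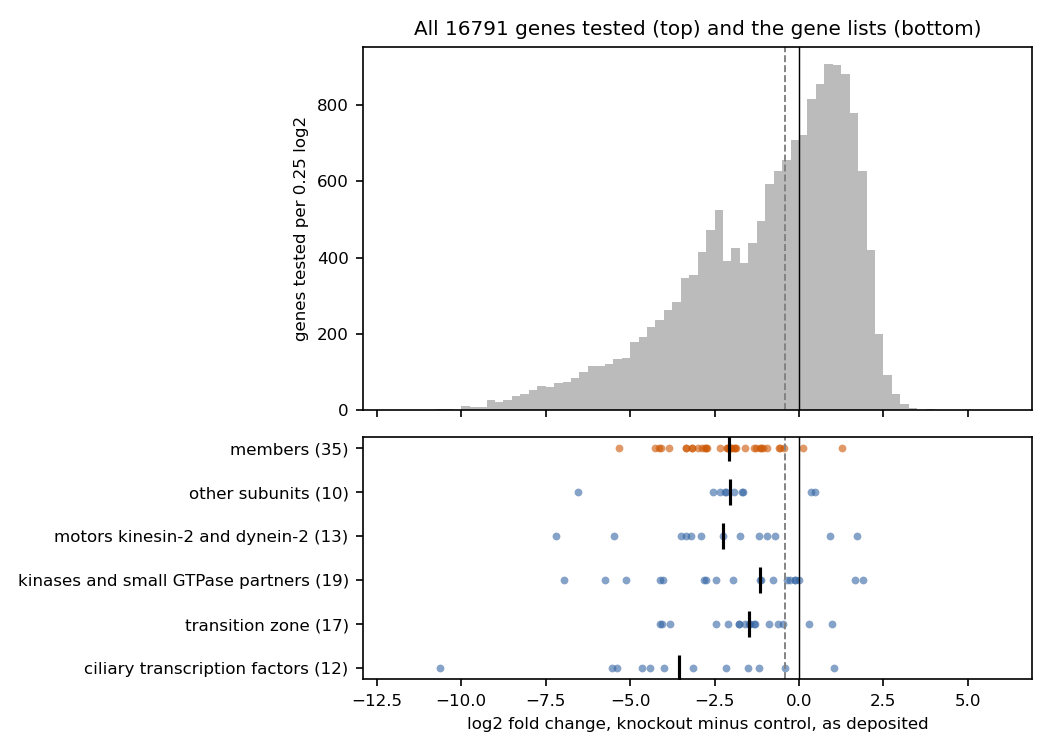
Histogram of the log2 fold changes of all 16791 genes tested as deposited (top), and 1 point per gene for the 35 members and the 5 other lists (bottom), with a black tick at each median and a dashed line at the median of all genes, -0.41. The members run from -5.34 to 1.26 with a median of -2.07.

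Several members begin next to a gene on the other strand. Within 1000 bases of a member's start, 9 members had 10 such neighbours, of which 8 were tested. As deposited, 3 neighbours were lower, 4 were higher and 1 did not pass. Of all genes, 50.4% were lower and 36.2% higher, and 8 neighbours are too few to compare with these shares. Ift140, Ift122 and Ift46 were lower under all 4 scalings beside neighbours that were higher under all 4. Cramp1l begins 297 bases from Ift140 and rose from 12.2 ± 1.17 to 15.7 ± 0.750 FPKM (limma adjusted p = 0.011). Mbd4, a DNA repair glycosylase, begins 99 bases from Ift122 and rose from 3.33 ± 0.127 to 5.82 ± 0.917 FPKM. Arcn1, a coatomer subunit, begins 63 bases from Ift46 and rose from 12.9 ± 0.0892 to 17.9 ± 1.73 FPKM. Tnfaip1, 29 bases from Ift20, rose from 6.90 ± 0.901 to 15.0 ± 1.63 FPKM (limma adjusted p = 9.1e-05), beside a member that was lower as deposited and higher under the other scalings.

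Cetn4, the gene of a centrin, begins 154 bases from Bbs12 and went from 111.6 ± 23.0 to 1.20 ± 0.536 FPKM, a log2 fold change of -6.06 ± 0.237 (SE, limma adjusted p = 1e-07), while Bbs12 did not pass. The pair shares 32 exon bases, 1.31% of those of Bbs12. Cetn4 drew 15672 control and 301 knockout reads, beside 375 and 730 for Bbs12, and strand treatment is not given in the sources used here. The part of the shared bases in the level of Bbs12 was not tested. At Cluap1 and Ift80 both sides were lower as deposited: 1700037C18Rik beside Cluap1 had a log2 fold change of -4.18 and Smc4, a condensin subunit beside Ift80, -1.70. The fall of Smc4 was not called under quantile normalization. The antisense RNA gene Gm26770, 153 bases from Tulp3, had a log2 fold change of 0.43 (limma adjusted p = 0.23) as deposited and was called higher under the other 3 scalings.

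**Figure D5:**
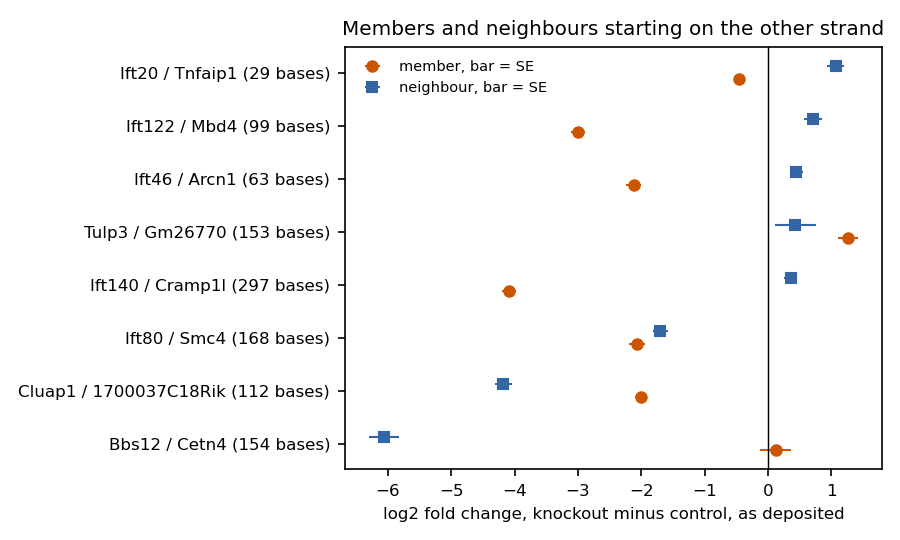
Log2 fold change as deposited, with SE, of 8 members (orange circles) and the neighbour that starts within 1000 bases on the other strand (blue squares), with the distance between starts in bases. Neighbours of Ift20, Ift122, Ift46 and Ift140 lie above 0 and the members below it as deposited (Ift20 lies above 0 under the other 3 scalings), and Cetn4 lies at -6.06 beside Bbs12 at 0.12.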

How the data were processed

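RNA levels were analysed in 6 libraries, 3 control and 3 knockout, grouped by the labels' titles. The submitters' processing notes name HISAT2 2.0.5 and the build mm10. For the counter, annotation release and treatment of strand nothing is given in the sources used here. The authors deposited FPKM values, with gene lengths and coordinates. Multiplied by length, 100% of the nonzero values were whole multiples of 1 read in each library, within 0.01 read, and read numbers here are those multiples. The divisor matched a size factor of the median-of-ratios kind from 19526 genes with reads in every library.

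Genes averaging 1 FPKM or more were tested on log2(FPKM + 0.5) by limma 3.58.1 (R 4.3.3), with a mean-variance trend and Benjamini-Hochberg adjustment over all genes at 0.05. The script was tested on simulated data. Fold changes on this scale understate those of low genes. Standard errors are moderated. Exon overlap used GENCODE M21, which held all 36 members, 35 with the same coordinates. No FPKM value was changed before the test, and no sample was left out. Python 3.11.15, numpy 2.4.6, pandas 2.3.3, scipy 1.17.1 and matplotlib 3.10.9 made tables and figures.

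The members and lists were chosen with earlier results of these data known. Every member is accounted for, and from each other list the 2 largest rises and the 2 largest falls past the threshold are named, except 1 gene that is not reported here. Alternatives were 2 pseudocounts, 2 filters, 3 scalings, a replicate block, limma voom on the recovered reads and leaving out each library.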

Additional observations from a re-analysis of the deposited data

How the results depend on the processing

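Among 15 alternatives, 26 of the 35 members kept their direction and their side of the threshold in all of those that tested them. Outside the 3 scalings, 33 members were lower in each alternative except the filter at 5 FPKM, where 31 were tested, 31 were lower and 0 were higher by limma, since Tulp3 was not tested there. That filter left 9583 genes, with 3227 higher and 5320 lower. With FPKM rescaled, quantile normalization and the size factor removed, the members higher numbered 5, 4 and 4, the members' median was -1.01, -1.37 and -1.21, and the genes of the 5 further lists higher numbered 19, 18 and 15. Directions turned, in that order of scalings, for Ift52 (0.57, 0.39 and 0.30), Ift20 (0.73, 0.65 and 0.46) and Bbs4 (0.56, 0.11 and 0.28), and with FPKM rescaled for Bbs2 (0.08) and Bbs1 (0.14). Without control replicate 3, Bbs12 was at -0.04. The counts of members higher and lower were 1 and 33 without each library in turn, and all 150 recomputed differences in proportion within a complex moved by less than their spread. Same-numbered libraries of the groups were not treated as paired in the main fit. Correlations of their deviations from the group means were -0.122, -0.053 and -0.040, which cannot show whether the libraries were paired. With the replicate block 1 member was higher and 33 were lower, and 5930 and 8364 of all genes. Depth limits Arl13a and Tulp1, which rest on 3 and 29 knockout reads.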
